A study of Homo sapiens with 6 samples.

Results

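The anaphase-promoting complex (APC/C) is a ubiquitin ligase of many subunits that marks mitotic proteins for destruction by the proteasome. Described here are 10 of its genes and regulators, out of 19776 genes measured. They are the coactivators CDC20 and FZR1, the inhibitor FBXO5, the substrate PTTG1, the ubiquitin-conjugating enzymes UBE2C and UBE2S, and the core subunits CDC16, CDC23, CDC27 and ANAPC1. Members were chosen by gene symbol, through every probe set whose platform annotation names one of them, which gave 22 probe sets. Where a gene has several, the brightest by mean over all 6 arrays stands for it. The 10 genes were proposed with earlier results of these data known.

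The samples were HCT116 cells, an established epithelial line from a human colorectal carcinoma, on single-channel Affymetrix arrays, 3 in each of 2 groups. The CDK4/6 siRNA cells received a pool of siRNAs to CDK4 and 1 siRNA product to CDK6, each at 30 nM. The control siRNA cells received a non-targeting pool and a negative control siRNA, again 30 nM of each, and both groups were taken 96 h after transfection. The labels call the arrays of a group biological replicates without saying whether the cultures were started separately, so the p-values speak to array-to-array spread alone. Values are log2 expression after robust multi-array averaging (RMA), and every difference is CDK4/6 siRNA minus control siRNA with n = 3 in each. A gene is called when the limma p-value, adjusted by Benjamini-Hochberg over all 19776 genes, is under 0.05.

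CDC20 activates the APC/C in mitosis, once the spindle checkpoint is satisfied, and the complex then ubiquitinates securin (PTTG1) and the B-type cyclins, so that sister chromatids part and the cell leaves mitosis. FZR1, also named CDH1, takes over in late mitosis and G1 and keeps mitotic regulators low until the cell commits to S phase. FBXO5, also named EMI1, blocks the complex during S and G2. CDK4 and CDK6, the kinases targeted here, act with D-type cyclins in G1, upstream of the E2F factors that drive FBXO5 and other S phase genes.

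Messages of the siRNA targets were lower in the CDK4/6 siRNA cells. CDK6 stood at 34.0% of the control level (log2 difference -1.56, SE 0.055, limma adjusted p = 7.18e-06) and CDK4 at 62.2% (-0.69, SE 0.082, adjusted p = 0.000430), and in neither did the groups overlap. Array medians lay between 5.36 and 5.39. Of 9 markers of colon epithelium, 6 were above a level of 8 in both groups, while CDX2 and VIL1, an intestinal transcription factor and a microvillus protein, were under 6. The epithelial markers went both ways by more than any member on its brightest probe set: the keratins KRT8 (0.59) and KRT18 (0.51) rose, and the junction proteins CDH1 (-0.54), CLDN4 (-0.52) and CLDN3 (-0.42) fell, with limma adjusted p between 0.000184 and 0.000950. The marker CDH1 is E-cadherin, a different gene from FZR1. It was not called on the mean of its probe sets (-0.27, limma adjusted p = 0.145), and CLDN4 gave -0.26 there. The probe sets that stand for KRT8, KRT18 and CLDN3 carry a suffix for probes that can bind other transcripts. EPCAM and KRT19 were not called. Of the 13 fibroblast, leukocyte and endothelial markers measured, 11 were under 6 in both groups. The exceptions were the collagen COL1A1, at 7.59 ± 0.04 in CDK4/6 siRNA cells and 8.09 ± 0.04 in control cells (SD, n = 3 each, adjusted p = 0.000311), and PECAM1, at 6.23 and 6.29. The part of COL1A1 and of the epithelial markers in the results was not tested. Hybridisation spike-ins, control RNAs added to the hybridisation mix, differed by -0.11. Scaling to them (spike-in scaling) put the median over all genes at 0.11, against -0.0011 as deposited, and the differences below are relative to the bulk of genes as RMA leaves it. In RNA from a whole culture, fewer cells in a phase of the cycle and less RNA per cell cannot be told apart.

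Promoter sequences are shown for 5 members, among them genes that were lower, higher and not called. They come from RefSeq (GRCh38.p14), which held windows for 9 of the 10 members, 12 windows in all, with none matched for UBE2C. Each line gives the 150 bases before a transcription start, 5′ to 3′ on the gene's strand. Capitals mark matches, on either strand, to 4 motifs: the cell cycle homology region, CHR (TTTGAA or TTCGAA), bound by the DREAM and MuvB complexes at genes of G2 and mitosis; the CCAAT box (CCAAT), bound by NF-Y; an E2F site (TTTCCCGC, TTTCGCGC, TTTGCCGC or TTTGGCGC); and the E-box (CACGTG), bound by MYC and MAX among others. Where CCAATTGG is in capitals, a CCAAT box on one strand overlaps one on the other. For a gene with several windows, the stretch with the most matches is shown.
CDC20 (chr1:43358831-43358980, plus strand): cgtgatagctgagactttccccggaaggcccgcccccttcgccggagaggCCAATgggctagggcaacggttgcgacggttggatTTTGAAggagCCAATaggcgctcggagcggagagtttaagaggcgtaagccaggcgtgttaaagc
FBXO5 (chr6:152983042-152983191, minus strand): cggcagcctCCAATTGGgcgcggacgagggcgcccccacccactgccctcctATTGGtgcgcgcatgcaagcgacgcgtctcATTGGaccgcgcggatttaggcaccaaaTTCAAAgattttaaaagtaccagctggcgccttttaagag
PTTG1 (chr5:160421705-160421854, plus strand): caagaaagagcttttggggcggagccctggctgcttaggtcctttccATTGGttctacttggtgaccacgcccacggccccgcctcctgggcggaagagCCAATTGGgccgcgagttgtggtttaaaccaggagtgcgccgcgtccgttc
CDC16 (chr13:114234747-114234896, plus strand): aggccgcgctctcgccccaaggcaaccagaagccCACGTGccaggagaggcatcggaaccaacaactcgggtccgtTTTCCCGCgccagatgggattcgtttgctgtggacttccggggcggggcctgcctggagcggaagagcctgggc
CDC23 (chr5:138213324-138213473, minus strand): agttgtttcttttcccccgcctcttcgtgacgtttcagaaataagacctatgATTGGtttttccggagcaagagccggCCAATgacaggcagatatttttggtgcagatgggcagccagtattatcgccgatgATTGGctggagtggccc
The CDC20 stretch holds a CHR 65 bases before the start between CCAAT boxes at 100 and 55. Outside the stretch shown, CDC20 has another CHR at 178. The stretch of FBXO5, before the second of its 2 annotated starts, holds a CHR at 40 and CCAAT boxes at 68, 98, 138 and 141. The window before its other start holds no match to any of the motifs, and neither window holds an E2F match. CDC20 and FBXO5 are the 2 members with a CHR and a CCAAT box in 1 window. Of all 35116 windows, 5.05% have both in the 250 bases searched before the start. PTTG1 has CCAAT boxes at 103, 51 and 48 and no CHR letters in either of its windows. CDC16 has an E-box at 116, an E2F match at 74 and, outside the stretch shown, a CCAAT box at 183. CDC23 has CCAAT boxes at 98, 72 and 17 and, outside the stretch shown, an E2F match at 187. The members shown are those with a match within 150 bases of a start. Farther out, UBE2S, which fell, has a CCAAT box at 191, FZR1 a CHR at 226 and CDC27 a CCAAT box at 226. ANAPC1 has no match. Over the 9 members with a window a CHR was found for 3, a CCAAT box for 7, an E2F match for 2 and an E-box for 1. Counted by window, 3 of their 12 windows held a CHR, 8 a CCAAT box, 2 an E2F match and 1 an E-box. Of all windows, 14.3% held a CHR, 32.0% a CCAAT box, 2.79% an E2F match and 6.34% an E-box. These are matches of letters and say nothing of binding.

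Of the 10 members, 4 fell and 2 rose, and 4 were not called, with 26.8% of all genes called in either direction. The genes that fell were the conjugating enzymes UBE2C and UBE2S, the substrate PTTG1 and the inhibitor FBXO5, with 12.9% of all genes called lower. The genes that rose were the core subunits CDC16 and CDC23, with 14.0% of all genes called higher. On the probe sets that stand for the genes, no member differed by as much as 0.4 on the log2 scale. The groups did not overlap in 8 members, 5 lower and 3 higher, where 40.9% of all genes did not overlap, 20.3% lower and 20.6% higher. The median difference of the 10 was -0.12, against -0.0011 over all genes. After spike-in scaling the calls were 3 lower and 3 higher and the median -0.014, with 6.67% of all genes called lower and 23.9% higher.

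**Figure D1:**
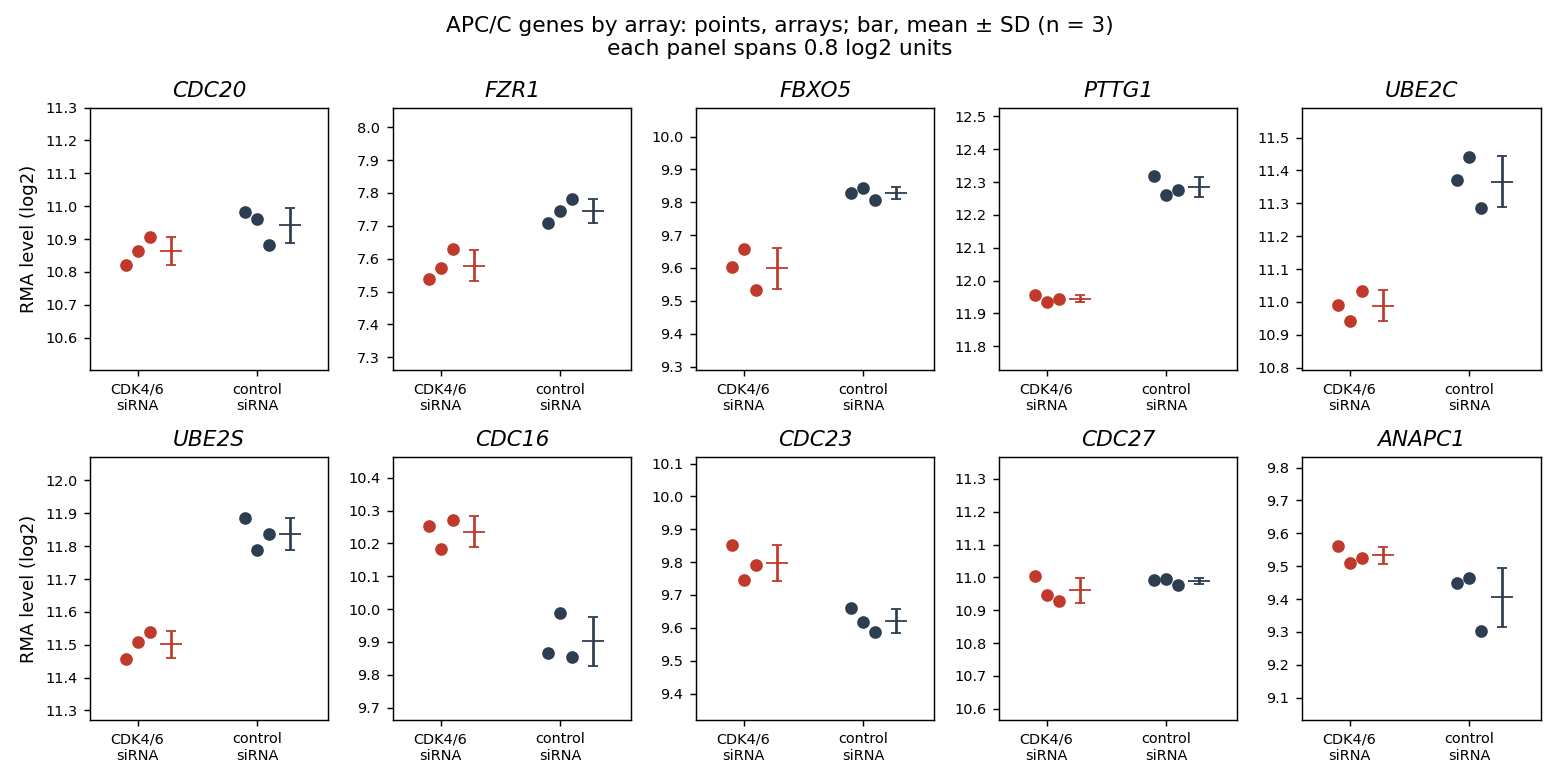
RMA level (log2, vertical axis) of each member on every array, with CDK4/6 siRNA arrays at the left of each panel and control siRNA arrays at the right; bars give mean ± SD (n = 3) and every panel spans 0.8 log2 units. The groups stand apart for PTTG1, UBE2C, UBE2S and CDC16 and overlap for CDC20 and CDC27.

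UBE2C and UBE2S work in turn on the APC/C, the first placing ubiquitin on substrates and the second lengthening the chains. UBE2C had levels of 10.99, 10.94 and 11.03 in the CDK4/6 siRNA arrays, against 11.37, 11.44 and 11.29 in the control arrays. Every CDK4/6 siRNA array lay below every control array. UBE2C fell by 0.38 on the log2 scale (SE 0.061, limma adjusted p = 0.00193), to 77.0% of the control level, which was the largest difference of either sign among the 10. UBE2S had levels of 11.46, 11.51 and 11.54 in the CDK4/6 siRNA arrays, against 11.89, 11.79 and 11.84 in the control arrays, again without overlap. UBE2S fell by 0.34 (SE 0.056, limma adjusted p = 0.00226), to 79.3% of the control level. Each enzyme rests on 1 probe set. Both calls held under every alternative that gave a value, with UBE2C between -0.42 and -0.27 and UBE2S between -0.36 and -0.23.

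PTTG1 encodes securin, which holds the protease separase in check until the APC/C destroys it. It had levels of 11.96, 11.94 and 11.94 in the CDK4/6 siRNA arrays, against 12.32, 12.26 and 12.28 in the control arrays. The CDK4/6 siRNA arrays were nearly level with each other and all lay below the controls. PTTG1 fell by 0.34 (SE 0.052, limma adjusted p = 0.00141), to 79.0% of the control level, with a range of -0.36 to -0.23 over the alternatives that gave a value. Its only probe set carries the suffix for probes that can bind other transcripts, so signal from the near-identical gene copies of securin cannot be told apart.

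FBXO5, the inhibitor, had levels of 9.60, 9.66 and 9.53 in the CDK4/6 siRNA arrays, against 9.83, 9.84 and 9.81 in the control arrays. The control arrays were close together and all lay above the CDK4/6 siRNA arrays. FBXO5 fell by 0.23 (SE 0.056, limma adjusted p = 0.0151), to 85.3% of the control level. The call was lost in 4 of 19 alternatives: at a threshold of 0.01, after spike-in scaling (-0.12, adjusted p = 0.234), without CDK4/6 siRNA replicate 3 (-0.20, adjusted p = 0.0661) and without control replicate 2 (-0.22, adjusted p = 0.0529), within a range of limma adjusted p of 0.00167 to 0.234 over all alternatives. A second FBXO5 probe set averaged 9.47 over the arrays and differed by -0.068 (adjusted p = 0.550 over all probe sets, limma). It too had every CDK4/6 siRNA array below the controls, by a narrow margin.

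CDC20 and FZR1, the coactivators, were not called. CDC20 had levels of 10.82, 10.86 and 10.91 in the CDK4/6 siRNA arrays, against 10.98, 10.96 and 10.88 in the control arrays, and the groups overlapped. Its difference was -0.078 (95% interval -0.21 to 0.050, limma adjusted p = 0.381), and 0.030 after spike-in scaling. The interval leaves out a fall as large as the estimate for UBE2C, but the difference between the 2 genes was not tested. FZR1 had levels of 7.54, 7.57 and 7.63 in the CDK4/6 siRNA arrays, against 7.71, 7.74 and 7.78 in the control arrays. These did not overlap, with a difference of -0.17 (95% interval -0.29 to -0.041, limma adjusted p = 0.0552). FZR1 passed the threshold with the dimmest 25% of genes left out (adjusted p = 0.0336) and without variance moderation (adjusted p = 0.0460).

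The 4 FZR1 probe sets did not move together. One at a mean level of 6.04 had 6.47, 6.09 and 6.28 in the CDK4/6 siRNA arrays, against 5.90, 5.90 and 5.64 in the control arrays. It rose by 0.47 (SE 0.11, limma adjusted p = 0.0157 over all probe sets). The dimmest, at 5.88, had 5.79, 5.69 and 5.70 in the CDK4/6 siRNA arrays, against 6.04, 5.94 and 6.11 in the control arrays. It fell by 0.31 (SE 0.069, adjusted p = 0.0140 over all probe sets), while the fourth, at 6.18, gave -0.0079. With the mean of its probe sets FZR1 stood at -0.0026, so these arrays give no single direction for the gene.

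CDC16, CDC23 and CDC27 form the arm of the complex that holds the coactivators, built from repeats that pair with each other. CDC16 had levels of 10.25, 10.18 and 10.27 in the CDK4/6 siRNA arrays, against 9.87, 9.99 and 9.85 in the control arrays. Every CDK4/6 siRNA array lay above every control. CDC16 rose by 0.33 (SE 0.061, limma adjusted p = 0.00349), to 126.0% of the control level, and all 3 of its probe sets rose. The probe set at a mean level of 9.40 had 9.77, 9.69 and 9.73 in the CDK4/6 siRNA arrays, against 9.15, 9.13 and 8.91 in the control arrays. That one rose by 0.67 (adjusted p = 0.000530 over all probe sets), and the remaining one by 0.30. The CDC16 call held in all 20 alternatives.

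CDC23 had levels of 9.85, 9.74 and 9.79 in the CDK4/6 siRNA arrays, against 9.66, 9.62 and 9.59 in the control arrays, without overlap. It rose by 0.17 (SE 0.056, limma adjusted p = 0.0487), close to the threshold. The call was lost in 13 of 20 alternatives, among them each of the 6 fits with 1 array left out (differences of 0.15 to 0.20) and the test over all probe sets (adjusted p = 0.0938). The other CDC23 probe set, at a mean level of 7.18, had 7.37, 7.50 and 7.48 in the CDK4/6 siRNA arrays, against 6.91, 6.92 and 6.87 in the control arrays. That one rose by 0.55 (SE 0.064, adjusted p = 0.000515 over all probe sets), and with the mean of both CDC23 rose by 0.36 (adjusted p = 0.000629).

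CDC27 was not called on any of its 4 probe sets. Its brightest had 11.00, 10.95 and 10.93 in the CDK4/6 siRNA arrays, against 10.99, 11.00 and 10.98 in the control arrays. The groups overlapped, with a difference of -0.028 (95% interval -0.15 to 0.091, limma adjusted p = 0.764) that turned to 0.080 with the spike-in scaling. The other 3 gave -0.053, 0.038 and 0.13.

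ANAPC1 encodes the largest subunit, the scaffold on which the complex is built. Each of its 3 probe sets is annotated to at least 1 other gene copy, ANAPC1P4, and the dimmest also to ANAPC1P2, so their signals cannot be told apart. The brightest had 9.56, 9.51 and 9.53 in the CDK4/6 siRNA arrays, against 9.45, 9.46 and 9.30 in the control arrays. These did not overlap, with control replicate 3 the lowest, and the difference of 0.13 was not called (95% interval -0.012 to 0.27, limma adjusted p = 0.175). It passed after spike-in scaling (0.24, adjusted p = 0.0223) and with the mean of all probe sets (0.18, adjusted p = 0.0401). The probe set at a mean level of 8.31 had 8.72, 8.55 and 8.58 in the CDK4/6 siRNA arrays, against 8.10, 8.04 and 7.84 in the control arrays. That one rose by 0.63 (SE 0.085, adjusted p = 0.00106 over all probe sets), while the dimmest gave -0.21 (adjusted p = 0.0581).

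Over the 22 probe sets of the members, 6 were called higher and 5 lower, with 8.86% and 8.17% of all 54613 probe sets. The 6 that rose were 1 of FZR1, 3 of CDC16, 1 of CDC23 and 1 of ANAPC1. The 5 that fell were 1 of FZR1 and those that stand for FBXO5, PTTG1, UBE2C and UBE2S. Which part of a transcript each probe set reads is not in the files used here.

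**Figure D2:**
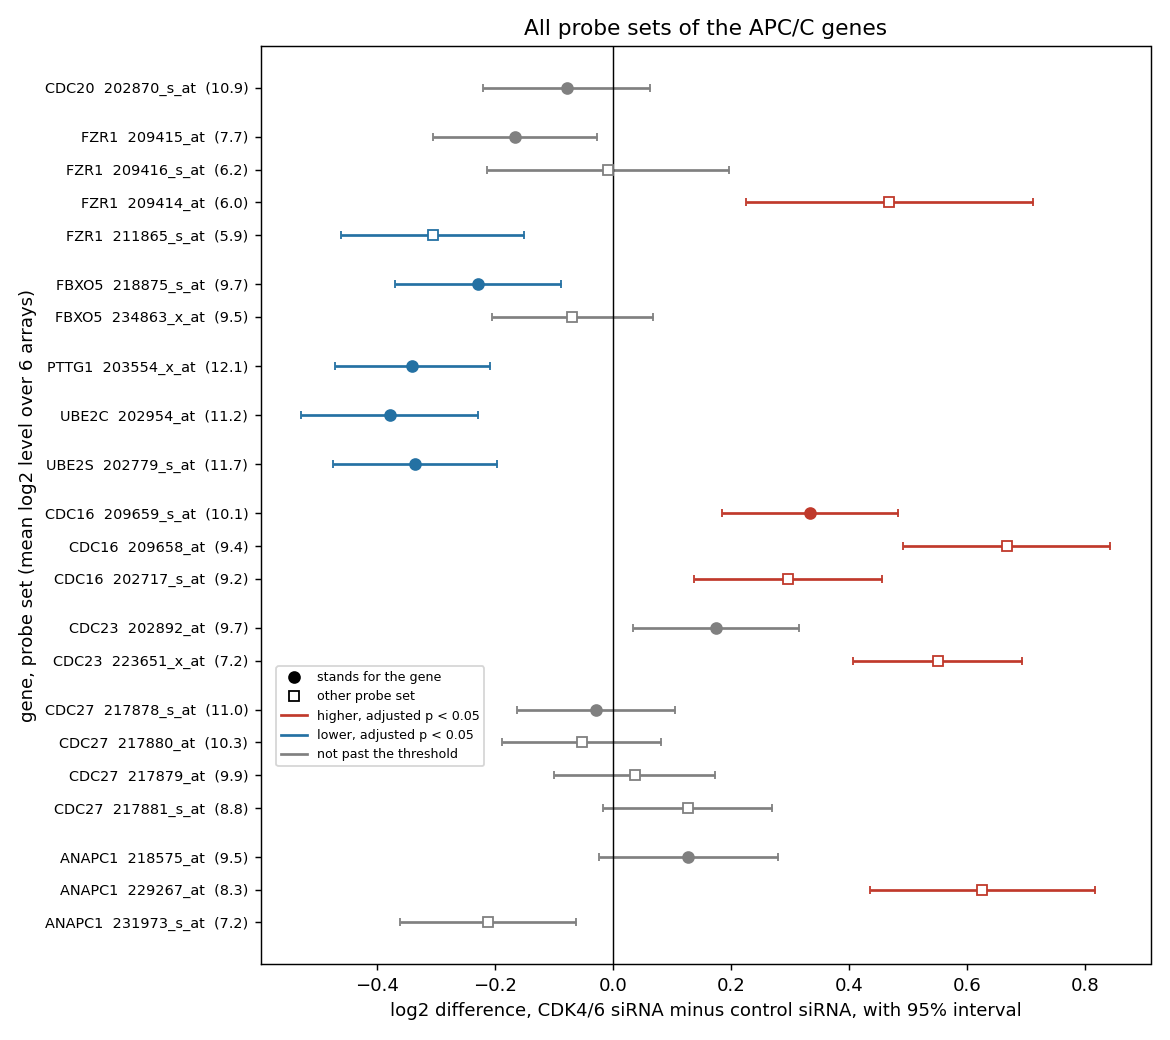
Log2 difference, CDK4/6 siRNA minus control siRNA, with its 95% interval (horizontal axis) for all 22 probe sets, with the mean log2 level in brackets; filled circles stand for the gene and colours give calls adjusted over all probe sets, where CDC23 at 9.71 is not called. All 3 CDC16 probe sets lie right of 0, while those of FZR1 and ANAPC1 lie on both sides.

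**Figure D3:**
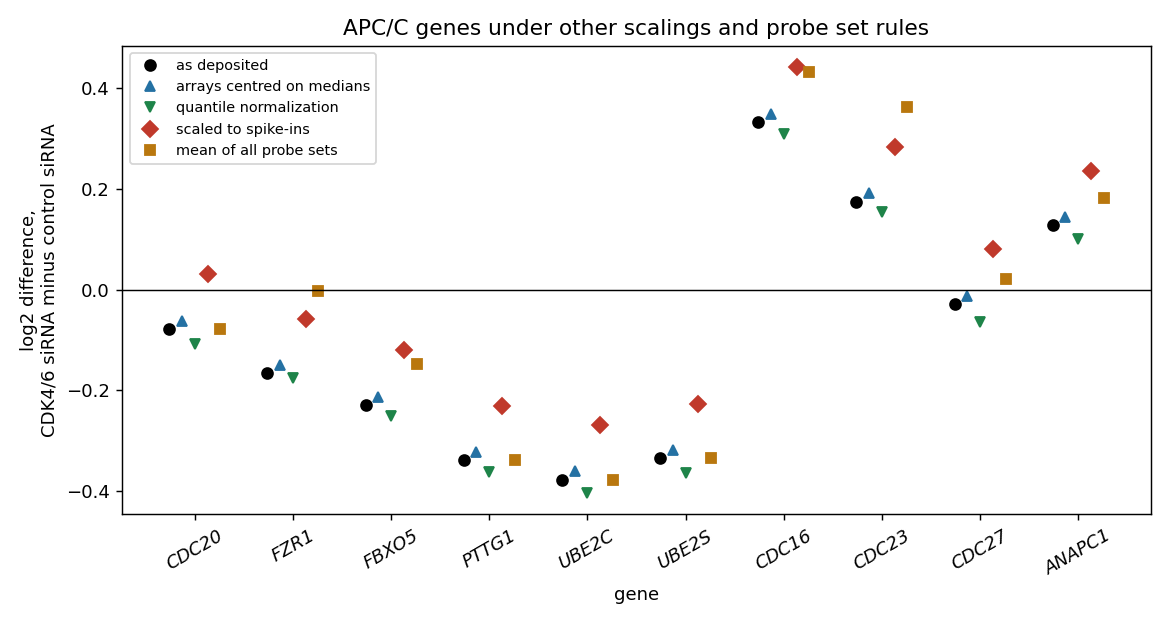
Log2 difference of each member (vertical axis) as deposited and under 4 other treatments of the values. UBE2C, UBE2S and PTTG1 stay below 0 and CDC16, CDC23 and ANAPC1 above 0 in all 5, while CDC20 and CDC27 cross 0 with the spike-in scaling and CDC27 also when its probe sets are averaged.

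Of 10 other subunits of the complex, 5 rose and 2 fell, where 14.0% of all genes rose and 12.9% fell, their median being 0.093. After spike-in scaling 5 rose and 0 fell, where 23.9% of all genes rose and 6.67% fell. ANAPC7, a further subunit of the same arm, rose by 0.50 (SE 0.072, limma adjusted p = 0.000997), at 9.14 ± 0.05 in CDK4/6 siRNA cells and 8.64 ± 0.12 in control cells (SD, n = 3 each). It rose by more on the mean of its probe sets (0.87) and on plain-name probe sets, those without a suffix for shared probes (1.24). ANAPC13, a small subunit, rose by 0.43, ANAPC4 by 0.32, ANAPC5 by 0.33 and CDC26, which binds CDC16, by 0.20. ANAPC4 has no plain-name probe set, and the one that stands for it carries the suffix for probes that can bind other transcripts. The CDC26 call was lost in 5 of 20 alternatives: with the replicate number as a block (adjusted p = 0.0603), at a threshold of 0.01, and without CDK4/6 siRNA replicate 2 (adjusted p = 0.0557), CDK4/6 siRNA replicate 3 (adjusted p = 0.0713) or control replicate 2 (adjusted p = 0.0616, limma in each). ANAPC13 and ANAPC5 lost their calls on plain-name probe sets (0.014 and 0.031) and stood at 0.22 each on the mean of probe sets. Of the 9 other subunits with a plain-name probe set, 2 rose on these and 1 fell, the median being 0.014. Of all 16783 genes with one, 2030 rose and 1800 fell. ANAPC11, the RING subunit that recruits the conjugating enzymes, fell by 0.27 (SE 0.051, limma adjusted p = 0.00380). It had 11.58 ± 0.01 in CDK4/6 siRNA cells and 11.86 ± 0.02 in control cells (SD, n = 3 each). ANAPC16 fell by 0.26. With the spike-in scaling ANAPC11 (-0.17) and ANAPC16 (-0.15) were not called, and on plain-name probe sets ANAPC11 (-0.20, limma adjusted p = 0.112) was not called either.

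Other regulators of the complex went both ways, with 4 of 11 measured genes lower and 1 higher, where 12.9% of all genes were lower and 14.0% higher. With the spike-in scaling 3 were lower and 2 higher, where 6.67% of all genes were lower and 23.9% higher. USP37, a deubiquitinase that protects cyclin A from the APC/C, fell by 0.68 (SE 0.076, limma adjusted p = 0.000319), with 7.88 ± 0.10 in CDK4/6 siRNA cells and 8.56 ± 0.10 in control cells (SD, n = 3 each). The checkpoint kinases BUB1 and TTK each fell by 0.42. On the mean of its probe sets BUB1 was not called (-0.084). BUB1B, which as part of the mitotic checkpoint complex holds CDC20 inactive, fell by 0.20, a call lost in 9 of 20 alternatives. Its partners MAD2L1 (-0.11) and BUB3 (0.064) were not called. On plain-name probe sets MAD2L1 fell by 0.34 (limma adjusted p = 0.00315, in a range of 0.00315 to 0.990 over 20 alternatives). TRIP13, the ATPase that helps take that complex apart, rose by 0.66 (SE 0.10, limma adjusted p = 0.00155), with 9.78 ± 0.07 in CDK4/6 siRNA cells and 9.12 ± 0.22 in control cells (SD, n = 3 each).

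Among 11 genes of separase, cohesin and cohesin regulators, 3 fell and 0 rose, where 12.9% of all genes fell and 14.0% rose. The share called was near the 26.8% of all genes called in either direction. With the spike-in scaling 0 fell and 1 rose, where 6.67% of all genes fell and 23.9% rose. The cohesin subunit RAD21, which separase cuts, fell by 0.34, STAG2 by 0.29 and STAG1 by 0.22. The STAG1 call was lost in 7 of 20 alternatives, and on the mean of its probe sets the value was -0.0015. The RAD21 call was lost in 4 of 19 alternatives: without control replicate 3 (-0.29, limma adjusted p = 0.0561), after spike-in scaling (-0.23, adjusted p = 0.0904), without variance moderation (adjusted p = 0.0879) and at a threshold of 0.01. Separase itself, ESPL1, gave -0.17 (95% interval -0.30 to -0.042, limma adjusted p = 0.0555) and was not called, though it passed in 4 of 20 alternatives.

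Of 30 genes whose proteins are APC/C substrates, 13 fell and 4 rose, where 12.9% of all genes fell and 14.0% rose, the median being -0.16. After spike-in scaling 6 fell and 6 rose, where 6.67% of all genes fell and 23.9% rose, the median being -0.049. On the mean of probe sets 9 fell and 5 rose (median -0.086), where 2184 of 19776 genes fell and 2559 rose. On plain-name probe sets 8 of the 21 measured fell and 5 rose (median -0.046), where 1800 of 16783 genes fell and 2030 rose. The 4 that rose were the phosphatase CDC25A, which activates CDK2 (1.02, limma adjusted p = 0.000252), the helicase loader CDC6 (0.67), the methylated DNA reader UHRF1 (0.61) and SKP2 (0.54), the F-box protein that targets CDKN1B. On the mean of its probe sets SKP2 rose by 0.23 (limma adjusted p = 0.0212), and on plain-name probe sets CDC6 rose by 1.05. UHRF1 was not called without variance moderation (adjusted p = 0.0511). The centrosomal kinase NEK2 fell by 0.71 (limma adjusted p = 0.000186) and the cytokinesis scaffold ANLN by 0.60. CENPF, of the kinetochore, fell by 0.39, but was not called on the mean of its probe sets (-0.15) and gave 0.081 on plain-name probe sets. Among the cyclins, the classic substrates, CCNB2 fell by 0.29, while CCNA2 (-0.15) and CCNB1 (0.089) were not called. The CCNB2 call was lost after spike-in scaling (-0.18, limma adjusted p = 0.0566) and on the mean of probe sets (-0.12, adjusted p = 0.133). CCNA2 passed with eBayes trend (adjusted p = 0.0258) and CCNB1 on plain-name probe sets (0.23, adjusted p = 0.0236), each in 1 of 20 alternatives. GMNN, the licensing inhibitor that the FZR1 form destroys in G1, gave 0.25 (adjusted p = 0.0508), with 10.54 ± 0.06 in CDK4/6 siRNA cells and 10.29 ± 0.15 in control cells (SD, n = 3 each), and passed in 7 of 19 alternatives. The lists share many genes with mitotic and replication genes already known to have moved in these arrays, so their counts are not independent evidence.

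**Figure D4:**
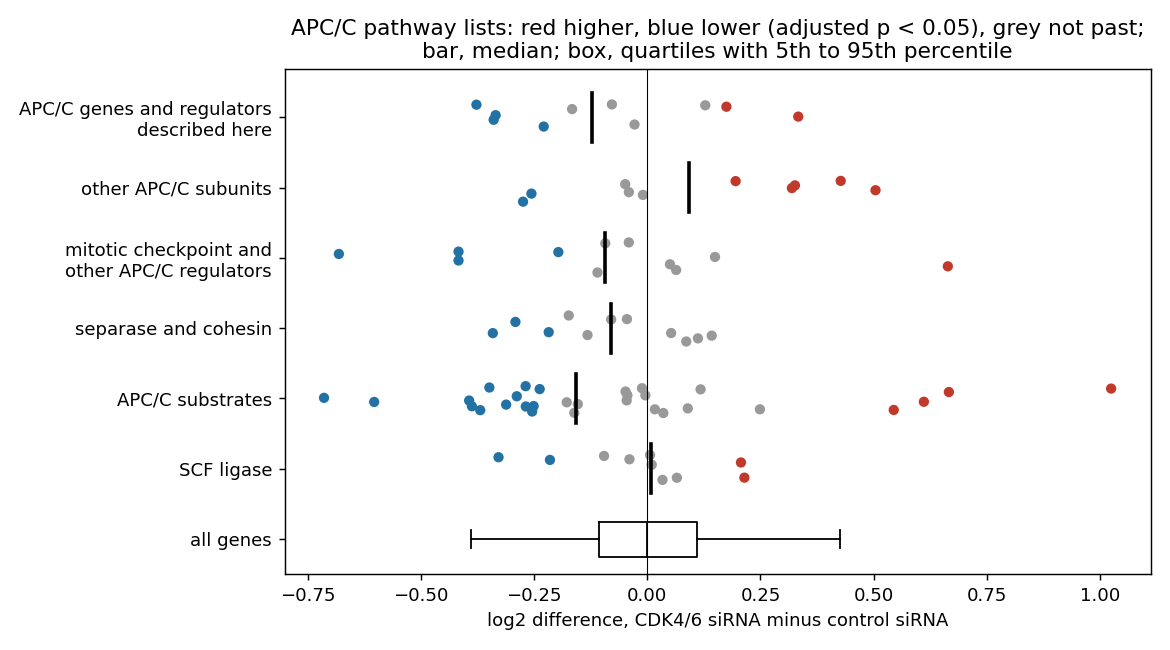
Log2 difference, CDK4/6 siRNA minus control siRNA (horizontal axis), for each gene of 6 lists, with the list median as a bar and all 19776 genes as a box. The members lie between -0.38 and 0.33, and the substrate list spreads from -0.71 to 1.02.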

How the data were processed

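The deposited values were on a log2 scale. Per the submitters' processing notes the authors used RMA, which equalises the distributions between arrays and so hides a change in total RNA; no version or filter is given in the sources used here. The table held 54675 probe sets, 62 of them array controls. By the platform annotation 41097 carried 1 gene symbol, 1801 several and 11777 none. Probe sets with 1 symbol were used for genes, and for the members also those with several. Symbols of 41037 of the 41091 used were found in a RefSeq table by gene identifier.

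Differences were fitted with lmFit and eBayes of limma 3.58.1 (R 4.3.3), with 1 term for the group, no filter and Benjamini-Hochberg adjustment, over 19776 genes or, for single probe sets, over 54613 probe sets. Precision is limited by the number of arrays: 3 arrays against 3 cannot give an exact permutation p under 0.1. On simulated data of 19776 genes, 97% of 100 genes changed by 0.5 and 100% of 100 changed by 1 were called, with 14 of 211 calls false. Changes under 0.5 were not simulated, so these rates do not cover the sizes seen on the members' brightest probe sets. Figures used matplotlib 3.10.9.

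The members and lists were chosen with earlier results of these data known. Named were the targets, all members, from each list up to 6 called genes by smallest adjusted p, and genes chosen for their role, whether called or not. CDC26, CCNB2, UHRF1, COL1A1 and other marker genes were named after their values were seen. Alternatives were quantile normalisation, a block for the replicate number, median centring, spike-in scaling, leaving out the dimmest 25% of genes, the mean of probe sets, every probe set tested, plain-name probe sets (without the suffix that marks shared probes), 1-symbol probe sets, trend, robust, array weights, no moderation, leaving out each array in turn and a threshold of 0.01. UBE2D1 of the regulator list and CD68 of the leukocyte markers had no 1-symbol probe set under those names, and another leukocyte marker is not reported here. Same-numbered arrays of the 2 groups correlated at -0.010, -0.12 and -0.0066 in their deviations from the group means, so the numbers were not used as pairs.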

Additional observations from a re-analysis of the deposited data

How the results depend on the processing

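PTTG1, UBE2C, UBE2S and CDC16 kept their direction and call under every alternative that gave them a value. The count of members called higher was 1 instead of 2 with quantile normalisation, every probe set tested, plain-name probe sets (6 members measured), robust eBayes, no variance moderation and a threshold of 0.01, each time because CDC23 was lost; it was 1 in all 6 fits with an array left out. The replicate number as a block also gave 1 member called higher and changed no other member's call. With plain-name probe sets 1 member was called lower, since 4 members, FBXO5, PTTG1 and UBE2S among them, have no such probe set. The members' median was -0.014 with the spike-in scaling, -0.040 with the mean of all probe sets, 0.038 on plain-name probe sets and -0.17 on 1-symbol probe sets, which leave out ANAPC1.

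Over all genes, 4732 were called higher and 1320 lower with the spike-in scaling, against 2762 and 2544 as deposited, and 1804 higher and 1523 lower at the threshold of 0.01. Signs turned for CDC20 (0.030) and CDC27 (0.080) with the spike-in scaling, CDC27 (0.021) with the mean of all probe sets, and CENPF (0.081) and CUL1 (-0.075) on plain-name probe sets; the cause was not tested. No detection calls were used, so signal over background was not assessed.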

Other observations

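The SCF ligases, which share with the APC/C the control of the cell cycle by ubiquitin, had 2 of 10 genes called higher and 2 lower, where 14.0% of all genes were higher and 12.9% lower, the median being 0.0080. After spike-in scaling 2 were higher and 1 lower, where 23.9% of all genes were higher and 6.67% lower. UBE2R2, a conjugating enzyme of these ligases, fell by 0.33 (limma adjusted p = 0.00559), and CCNF, an F-box protein of G2, by 0.22. The scaffold CUL1 rose by 0.21 and COPS5, which removes NEDD8 from cullins, by 0.21. The CUL1, CCNF and COPS5 calls were lost in 10, 7 and 3 of 20 alternatives.

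By the root mean square difference of 6 values, each gene centred on its own mean, the genes nearest to CDC20 among 19775 were NRDC (0.012), TMED8 (0.013) and LINC02944 (0.015). Those nearest to FBXO5 were RBBP6 (0.016), SLC25A36 (0.018) and DST (0.021). These are descriptions of 6 arrays in 2 groups.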
